A study of Homo sapiens with 6 samples.

Results

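The inflammasome and pyroptosis genes described here are 10 genes, NLRP1, NLRP3, AIM2, IFI16, NOD2, PYCARD, CASP1, CASP4, CASP5 and GSDMD, taken by symbol from the 58174 genes with a value in the 6 samples. T24, an established human bladder cancer cell line, carried a lentiviral hairpin RNA against UBC9 (shRNA-UBC9) or a scrambled lentiviral hairpin (shRNA-NC), and both groups were selected with puromycin as stable lines. Sequencing covered 3 samples per group, and levels are given as RPKM, mapped reads divided by the length of the gene and by the library's total. UBC9 is the conjugating enzyme that attaches SUMO to other proteins. A single hairpin stood for the knockdown, and no source used here says that the 3 samples of a group were separate cultures, so the p-values measure only the spread between these samples, which may be technical.

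An inflammasome is a protein platform built when a sensor in the cytosol or nucleus detects a microbial product, foreign or misplaced DNA, or damage to the cell. The sensor gathers the adaptor ASC, encoded by PYCARD, and ASC gathers caspase-1, which cleaves the precursors of interleukin-1beta and interleukin-18. Caspase-1, and in the non-canonical pathway caspase-4 and caspase-5, which bind bacterial lipopolysaccharide directly, also cleave gasdermin D, whose freed end forms pores in the membrane and leads to the lytic death called pyroptosis. Several of these genes are known to be induced by interferons and by NF-kappaB, and activation of the platform takes place in the proteins, which RNA levels do not measure.

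Read counts are not in the files used here, so absolute depth is unknown. From the steps in which low values rise, depth relative to shRNA-NC replicate 1 lay between 0.945 and 1.21, and between 18059 and 19725 genes were above 0 in a sample. Keratins 7, 8 and 18, markers of urothelial cells, were abundant in every sample, while CDH1 and UPK1B were at 0 in the 3 shRNA-NC samples and at most 0.0245 RPKM in shRNA-UBC9. Of 14 leukocyte markers, 8 myeloid and 6 lymphoid, 10 were at 0 in shRNA-NC replicate 1 and 11 in shRNA-UBC9 replicate 3, against 2 or 3 in each of the other 4 samples. PTPRC, LYZ, AIF1, CD3E, CD3D and CD2 were at 0 in these 2 libraries only. Other markers did not follow this split. CD14 was detected in all 6 samples, at 0.260 to 0.752 RPKM, and was highest in shRNA-UBC9 replicate 3, as was CSF1R at 0.0344 RPKM. SPI1 was highest in shRNA-NC replicate 1, at 0.0486 RPKM. NKG7 was at 0.0717 RPKM there and at 0 in the other shRNA-NC samples. The myeloid markers summed to 0.724 to 1.46 RPKM in shRNA-NC and 0.792 to 1.78 RPKM in shRNA-UBC9, and the lymphoid markers to 0.0717 to 0.488 and 0 to 0.791 RPKM. The 2 libraries with most markers at 0 also had the lowest relative depth of their groups, so values for the other 4 samples alone are given beside the results.

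CASP1 and CASP4 and most of the sensors were higher in shRNA-UBC9, while the adaptor and the pore-forming protein were at like levels in both groups. Of the 10 genes, 7 passed the expression filter (0.5 RPKM or more in 3 or more samples) and were tested among 12428 genes, and each of these 7 was above 0.5 RPKM in every sample of both groups. CASP1, NLRP3, IFI16 and CASP4 were up-regulated, that is, had a log2 fold change above 1 and a limma adjusted p below 0.05. None of the 7 was down-regulated by limma, and none was lower at an unadjusted p below 0.05, while 5 were higher. At that threshold 23.2% of all tested genes were lower and 23.8% higher. Over all tested genes, 5.2% were up-regulated and 2.7% were down-regulated. The median log2 fold change was 1.25 over these 7 genes and 0.005 over all tested genes. All 3 shRNA-UBC9 samples lay above all 3 shRNA-NC samples for 5 of the 7 tested genes, and this was so for 25.7% of all tested genes. With 3 samples on each side, the smallest p an exact permutation test allows is 0.1.

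**Figure D1:**
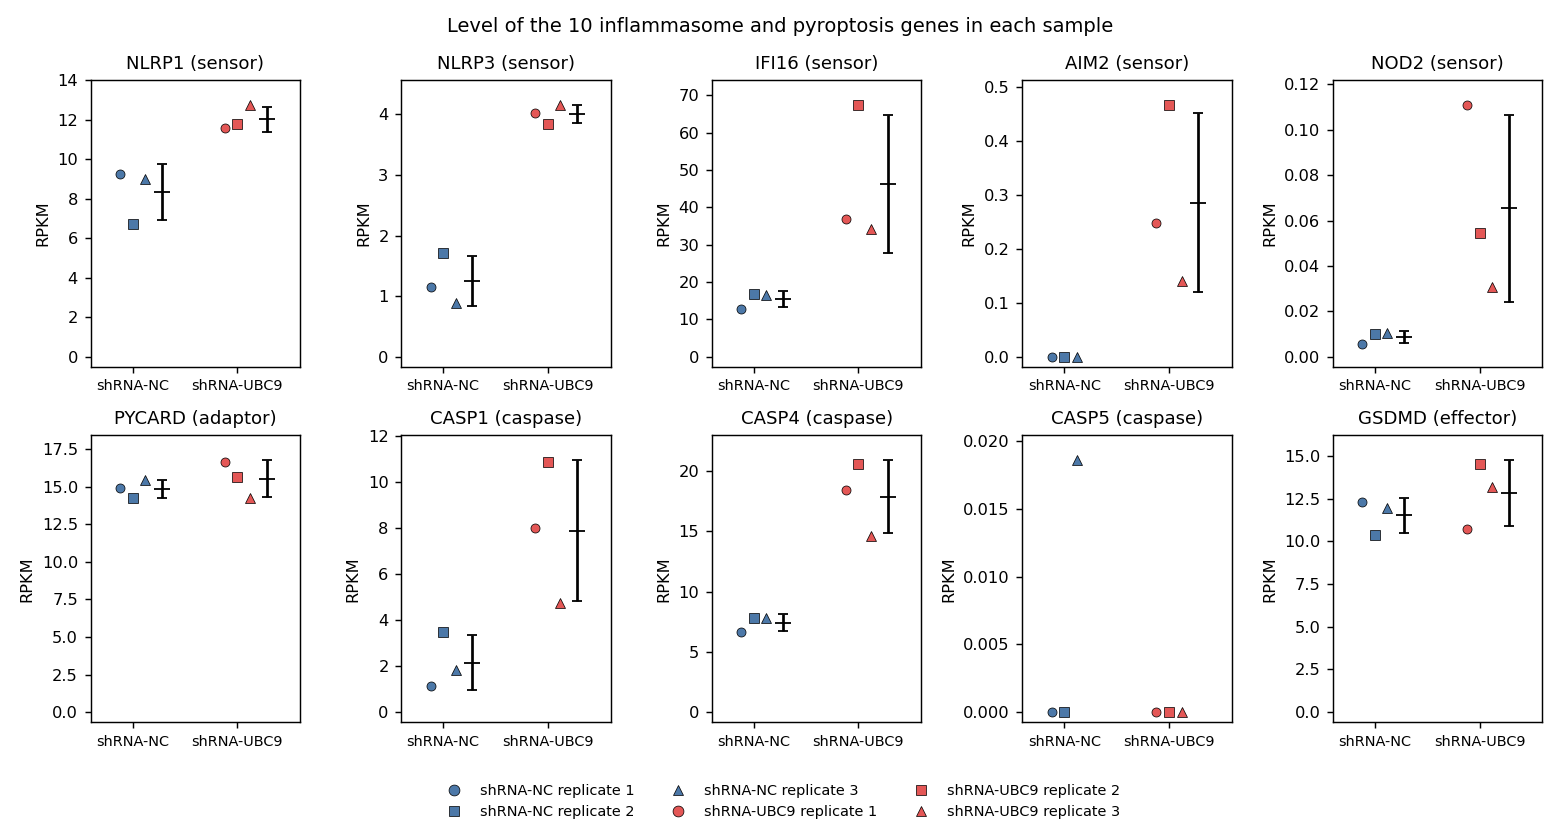
Level in RPKM (y axis of each panel, starting near 0) of the 10 inflammasome and pyroptosis genes in each shRNA-NC (blue) and shRNA-UBC9 (red) sample, with the replicate shown by the marker's shape and, in groups without a sample at 0, the mean and SD of 3 samples as a black bar. The red points lie above every blue point for NLRP1, NLRP3, IFI16, AIM2, NOD2, CASP1 and CASP4, the groups overlap for PYCARD and GSDMD, and CASP5 is above 0 in 1 sample.

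Among the sensors, NLRP3, a cytosolic protein that responds to potassium loss and many other disturbances, was up-regulated. It measured 1.15, 1.71 and 0.895 RPKM in the shRNA-NC samples and 4.02, 3.85 and 4.15 RPKM in the shRNA-UBC9 samples. The shRNA-UBC9 values lay close together and well above the highest control. The mean was 1.25 ± 0.418 RPKM in shRNA-NC and 4.01 ± 0.151 RPKM in shRNA-UBC9 (SD, n = 3 each), giving a log2 fold change of 1.65 (SE 0.20, 95% interval 1.19 to 2.11, limma adjusted p = 0.00069). Of the 75-base stretches of NLRP3 transcripts, 60.7% also occur in transcripts of an unnamed gene annotated at the same place, so its reads could have been divided by the counting. The gene lies on the plus strand at chr1:247416156-247449108 (GRCh38).

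IFI16, a sensor of DNA found mostly in the nucleus, had the highest level of the 10 genes in shRNA-UBC9. It measured 12.9, 16.9 and 16.5 RPKM in shRNA-NC and 36.9, 67.5 and 34.3 RPKM in shRNA-UBC9. All 3 knockdown samples lay above the controls, and replicate 2 stood far above the other two. The means were 15.5 ± 2.20 and 46.2 ± 18.4 RPKM (SD, n = 3 each), giving a log2 fold change of 1.51 (SE 0.24, 95% interval 0.96 to 2.07, limma adjusted p = 0.0023). With shRNA-UBC9 replicate 2 left out, IFI16 still differed by 1.21 on the log2 scale (limma adjusted p = 0.00116).

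NLRP1, a sensor that is activated when its own end is cut off or degraded, was higher by a smaller amount that did not reach the fold threshold. It measured 9.27, 6.72 and 9.02 RPKM in shRNA-NC and 11.6, 11.8 and 12.7 RPKM in shRNA-UBC9. The groups did not overlap, and the means were 8.33 ± 1.41 and 12.02 ± 0.633 RPKM (SD, n = 3 each). The log2 fold change was 0.54 (SE 0.13, 95% interval 0.24 to 0.84, limma adjusted p = 0.0141), and without shRNA-NC replicate 1 and shRNA-UBC9 replicate 3 the limma adjusted p was 0.0517. NLRP1 lies on the minus strand at chr17:5499415-5619424, and 6.10% of its 75-base stretches also occur in an unnamed gene of the same release.

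AIM2 and NOD2 were too low for the test. AIM2, a sensor of double-stranded DNA in the cytosol, was listed at 0 in all 3 shRNA-NC samples and at 0.248, 0.466 and 0.141 RPKM in the shRNA-UBC9 samples. In shRNA-NC replicate 1 a single step of AIM2 was worth 0.0167 RPKM, and read in such steps the shRNA-UBC9 values stood for 18, 33 and 8 reads. When every detected gene was fitted, with no filter, AIM2 had a limma adjusted p of 0.00918 among 22896 genes. It entered that fit only through the shRNA-UBC9 samples, and the pseudocount alone set its control level. This p is therefore no independent support for a difference. Of its 75-base stretches, 6.38% also occur in the pseudogene RAD1P2. AIM2 was at 0 in shRNA-NC replicates 2 and 3, where PTPRC, LYZ and CD3E were detected. It was at 8 steps in shRNA-UBC9 replicate 3, where these 3 markers were at 0. In that library CD14 was at 0.752 RPKM and CSF1R at 0.0344 RPKM. MNDA, a myeloid gene of the same family, was at 0 in shRNA-NC replicate 1 and shRNA-UBC9 replicate 3 and between 0.0269 and 0.0574 RPKM in the other 4.

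NOD2, a receptor for fragments of bacterial cell wall that signals through RIPK2 and does not itself build the classical platform, measured 0.00583, 0.0100 and 0.0103 RPKM in shRNA-NC and 0.111, 0.0543 and 0.0308 RPKM in shRNA-UBC9. In steps these values stood for 1, 2 and 2 reads in the controls and for 23, 11 and 5 reads in the knockdown. Per unit of relative depth the ratio of the summed steps was 7.71, with an exact 95% interval of 3.04 to 25.1 that covers counting error only. NOD2 lies on the plus strand at chr16:50693588-50733077. Fitted without the filter, it had a limma adjusted p of 0.0751. The groups did not overlap for either gene, but the levels were a small part of 1 RPKM.

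IFI16 and AIM2 are neighbours. IFI16 lies on the plus strand at chr1:158999968-159055155 and AIM2 on the minus strand at chr1:159061599-159187843, 6443 bases apart, with the related genes MNDA and PYHIN1 in the same cluster. PYHIN1 was at most 0.0159 RPKM in any sample. The higher values in shRNA-UBC9 were thus seen for IFI16 and AIM2 in this cluster, while MNDA and PYHIN1 had overlapping groups at levels near 0.

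PYCARD, which encodes the adaptor ASC shared by most inflammasomes, was measured well and did not differ beyond the spread. It had 14.9, 14.2 and 15.4 RPKM in shRNA-NC and 16.7, 15.7 and 14.2 RPKM in shRNA-UBC9. The groups overlapped, with means of 14.9 ± 0.588 and 15.5 ± 1.23 RPKM (SD, n = 3 each). The log2 fold change was 0.06 (SE 0.09, limma adjusted p = 0.633), and its 95% interval of -0.15 to 0.27 holds no change as large as a doubling. A two-sided exact permutation test gave p = 0.5. PYCARD lies on the minus strand at chr16:31201486-31203450 and overlaps PYCARD-AS1 on the plus strand by 1566 bases. PYCARD-AS1 was at 0 in shRNA-NC and at 0.177, 0.0778 and 0 RPKM in shRNA-UBC9, and since no source used here says whether strand was used in counting, reads of the pair cannot be told apart.

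CASP1, the caspase that matures interleukin-1beta, had the largest log2 fold change of the 7 tested genes. It measured 1.16, 3.50 and 1.81 RPKM in shRNA-NC and 8.02, 10.9 and 4.77 RPKM in shRNA-UBC9. The lowest knockdown sample lay above the highest control, and replicate 2 was the highest sample of both groups. The means were 2.16 ± 1.21 and 7.90 ± 3.06 RPKM (SD, n = 3 each), giving a log2 fold change of 1.88 (SE 0.40, 95% interval 0.97 to 2.79, limma adjusted p = 0.00759). This was also the tested gene of the 10 with the widest interval. Leaving out any 1 sample gave log2 fold changes between 1.53 and 2.29 with a limma adjusted p of at most 0.0301.

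CASP4, a caspase that binds lipopolysaccharide, measured 6.64, 7.84 and 7.79 RPKM in shRNA-NC and 18.4, 20.6 and 14.6 RPKM in shRNA-UBC9. Each knockdown sample was above every control by a wide margin. The means were 7.43 ± 0.678 and 17.9 ± 3.01 RPKM (SD, n = 3 each), giving a log2 fold change of 1.25 (SE 0.14, 95% interval 0.93 to 1.56, limma adjusted p = 0.000439). CASP5, the near relative of CASP4, was at 0 in 5 samples and at 0.0186 RPKM in shRNA-NC replicate 3. It did not pass the filter, and no difference was detectable at this depth.

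The inflammatory caspases stand side by side on the minus strand of chromosome 11. CASP4 is at chr11:104942866-104969366, CASP5 at chr11:104994235-105023168 and CASP1 at chr11:105025397-105035250, with CARD16, an inhibitor of caspase-1 activation that arose as a copy of its first part, at chr11:105041326-105101431. CASP5 ends 2228 bases from CASP1 and 24868 bases from CASP4. In the order CASP4, CASP5, CASP1 and CARD16 the cluster thus held an up-regulated gene, a gene near 0 and then 2 up-regulated genes, and CASP12, CARD17 and CARD18 were at 0 in all 6 samples.

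CARD16 measured 0.159, 0.428 and 0.228 RPKM in shRNA-NC and 2.43, 1.85 and 0.609 RPKM in shRNA-UBC9. It changed by 2.10 on the log2 scale (SE 0.47, limma adjusted p = 0.0102), and it passed the filter only through the shRNA-UBC9 samples. With a pseudocount of 1 the difference was 0.98, under the fold threshold. CASP1 and CARD16 share 2.14% of the 75-base stretches of CASP1 and 6.13% of those of CARD16, so reads of the shared part could have been placed in either gene.

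**Figure D2:**
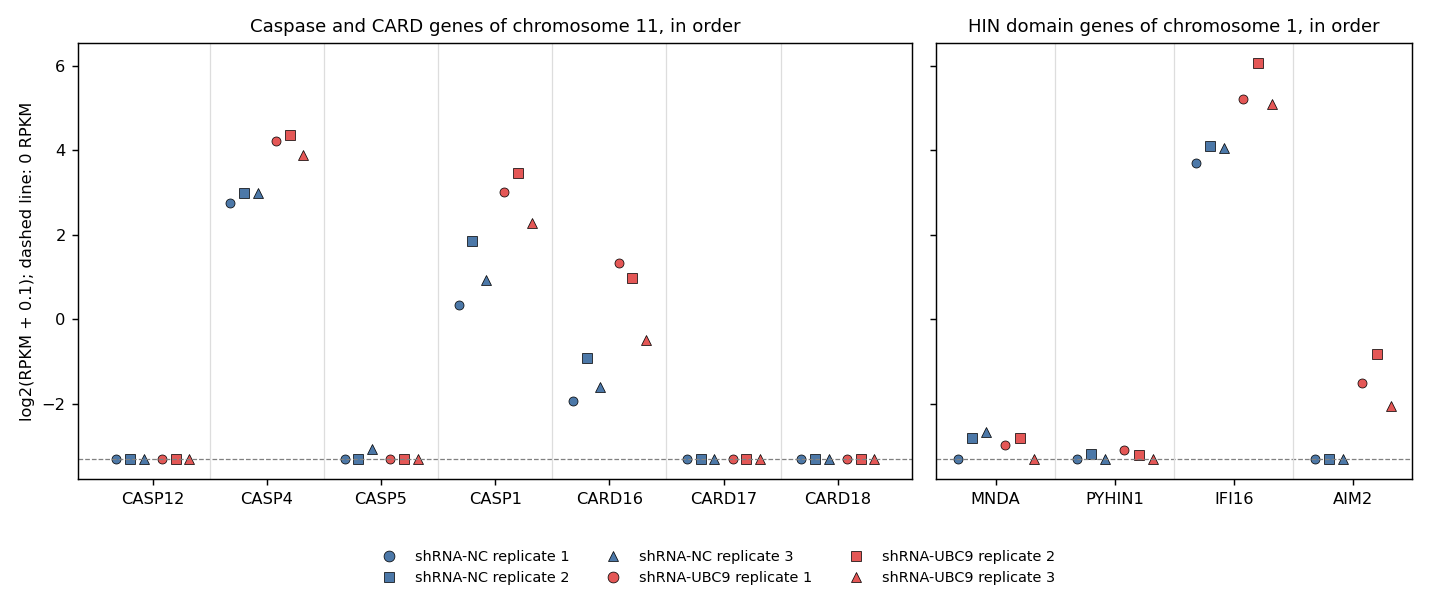
Level as log2(RPKM + 0.1) (y axis) in each shRNA-NC (blue) and shRNA-UBC9 (red) sample, with the replicate shown by the marker's shape, of the caspase and CARD genes of chromosome 11 (left) and the DNA sensor genes of chromosome 1 (right), in their order along the chromosome (x axis), with a dashed line where a gene is at 0 RPKM. CASP4, CASP1 and CARD16 are higher in shRNA-UBC9 while CASP5, between CASP4 and CASP1, is near 0, and IFI16 and AIM2 are higher while MNDA and PYHIN1 are near 0.

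The promoters of CASP4 and CASP5 are shown because these genes share a cluster and much of their sequence but not their level. Each window holds 250 bases before the RefSeq start site and 50 from it on (RefSeq, GRCh38.p14), read 5′ to 3′ on the gene's own strand, the minus strand, at chr11:104968525-104968824 for CASP4 and chr11:105023119-105023418 for CASP5. Capitals mark every match, on either strand, to the interferon-stimulated response element (ISRE, GAAANNGAAA), the STAT-binding GAS element (TTCNNNGAA) or an NF-kappaB motif (GGGNNNNNCC).
CASP4: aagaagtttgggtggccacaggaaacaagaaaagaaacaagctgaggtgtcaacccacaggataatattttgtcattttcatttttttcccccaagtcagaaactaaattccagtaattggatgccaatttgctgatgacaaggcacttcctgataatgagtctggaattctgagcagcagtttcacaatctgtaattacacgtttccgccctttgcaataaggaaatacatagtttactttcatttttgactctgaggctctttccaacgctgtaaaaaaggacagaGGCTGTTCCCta
CASP5: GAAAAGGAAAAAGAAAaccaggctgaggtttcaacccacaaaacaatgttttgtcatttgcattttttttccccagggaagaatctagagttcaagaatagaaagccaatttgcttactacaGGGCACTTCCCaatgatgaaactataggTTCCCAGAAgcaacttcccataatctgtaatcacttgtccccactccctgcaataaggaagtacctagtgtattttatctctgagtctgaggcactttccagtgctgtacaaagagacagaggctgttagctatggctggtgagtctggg
The windows were alike, with 215 identical bases of 280 aligned (76.8%), the highest identity among pairs of the windows of these genes, of which the next had 63.2%. The CASP5 window held overlapping ISRE matches from -250 to -241 and -244 to -235 (start site = 0), a GAS match from -100 to -92 and a pair of overlapping NF-kappaB matches, whereas the CASP4 window held an NF-kappaB match alone, from 38 to 47. Matches are letters in a window and show no binding.

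The windows of AIM2 (minus strand, chr1:159076717-159077016) and NLRP3 (plus strand, chr1:247415923-247416222) are shown for the sensors, with the same capitals, since AIM2 was, besides CASP5, the one gene with an ISRE match among the 7 that had a window and NLRP3 was the up-regulated sensor with motif matches.
AIM2: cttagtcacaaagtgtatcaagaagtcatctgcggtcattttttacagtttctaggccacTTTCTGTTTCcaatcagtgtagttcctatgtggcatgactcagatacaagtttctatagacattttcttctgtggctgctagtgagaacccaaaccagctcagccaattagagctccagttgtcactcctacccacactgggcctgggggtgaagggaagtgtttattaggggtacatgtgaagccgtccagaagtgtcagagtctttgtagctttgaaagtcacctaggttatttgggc
NLRP3: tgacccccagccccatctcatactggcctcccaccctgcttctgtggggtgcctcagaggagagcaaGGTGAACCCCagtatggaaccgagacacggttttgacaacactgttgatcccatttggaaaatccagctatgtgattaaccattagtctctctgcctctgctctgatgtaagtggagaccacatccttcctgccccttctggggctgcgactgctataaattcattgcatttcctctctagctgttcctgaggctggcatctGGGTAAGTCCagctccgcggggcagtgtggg
The ISRE match of AIM2 lay on the reverse strand from -190 to -181. NLRP3 held NF-kappaB matches from -183 to -174 and from 19 to 28. Windows were found for 7 of the 10 genes, 9 windows in all, and none for CASP1, NLRP1 and GSDMD. Over 35116 RefSeq windows of this length, 3.57% held an ISRE match, 7.66% a GAS match and 58.7% an NF-kappaB match. Of the 9 windows, 2 held an ISRE match, 1 a GAS match and 5 an NF-kappaB match. Both windows of IFI16, which was up-regulated, held none of the 3 motifs. The window of PYCARD, whose level did not differ, held 4 NF-kappaB matches. Whether the motifs bear on the levels was not tested.

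GSDMD, the protein that forms the pore, was expressed at a moderate level in both groups. It measured 12.3, 10.4 and 11.9 RPKM in shRNA-NC and 10.7, 14.5 and 13.2 RPKM in shRNA-UBC9. The groups overlapped, with means of 11.5 ± 1.02 and 12.8 ± 1.93 RPKM (SD, n = 3 each) and a log2 fold change of 0.14 (SE 0.13, 95% interval -0.15 to 0.44, limma adjusted p = 0.409). A two-sided exact permutation test gave p = 0.4.

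The balance between the parts of the pathway followed from these values. RPKM is scaled by length, so levels of different genes may be set side by side. In shRNA-NC, IFI16, PYCARD and GSDMD were highest, with the ranges of IFI16 and PYCARD overlapping, followed by NLRP1 and CASP4, whose ranges overlapped, then by CASP1 and NLRP3, and by NOD2, CASP5 and AIM2 near 0. In shRNA-UBC9, IFI16 lay above all. CASP4 came next and overlapped PYCARD, PYCARD overlapped GSDMD and GSDMD overlapped NLRP1. CASP1 lay below NLRP1 without overlap, but its highest sample, at 10.9 RPKM, was just above the lowest of GSDMD, at 10.7 RPKM. NLRP3 lay below CASP1 without overlap.

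Relative to PYCARD in the same sample, CASP1 stood at 0.0778, 0.246 and 0.118 in shRNA-NC and at 0.481, 0.696 and 0.336 in shRNA-UBC9. CASP4 went from less than PYCARD, at 0.446, 0.551 and 0.506 of it, to slightly more, at 1.104, 1.31 and 1.03. For NLRP3 the ratios were 0.0770, 0.1202 and 0.0581 in shRNA-NC and 0.241, 0.246 and 0.292 in shRNA-UBC9. None of these ratios overlapped between the groups, and each gave p = 0.1 in a two-sided exact permutation test, the lowest value this design can reach. The ratio of CASP1 to CASP4 was 0.175, 0.446 and 0.233 in shRNA-NC and 0.436, 0.530 and 0.326 in shRNA-UBC9, with overlap (exact permutation p = 0.3), and so was that of GSDMD to PYCARD (exact permutation p = 0.8).

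**Figure D3:**
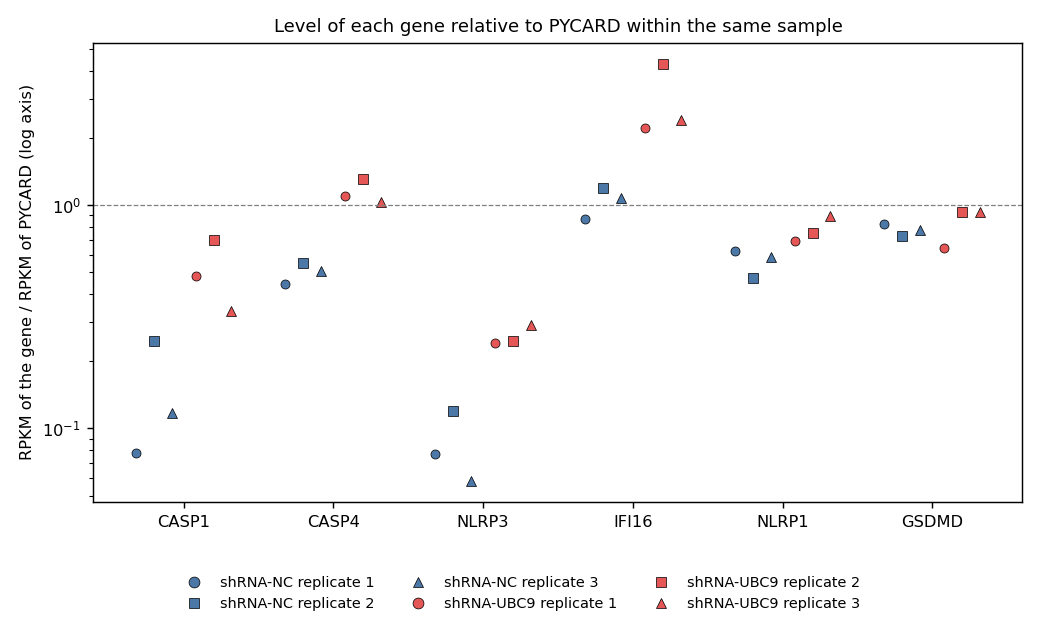
Ratio of each gene's RPKM to that of PYCARD in the same sample (y axis, log scale) for the 3 shRNA-NC (blue) and 3 shRNA-UBC9 (red) samples, with the replicate shown by the marker's shape. CASP4 lies between 0.446 and 0.551 in shRNA-NC and between 1.03 and 1.31 in shRNA-UBC9, and GSDMD overlaps between the groups.

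The order of the samples within a group differed between the genes. Among the 7 tested genes, shRNA-UBC9 replicate 2 was the highest sample of its group for 4, and shRNA-UBC9 replicate 3 was the lowest for 4. The same shares over all tested genes were not counted, so these counts show no trait of the 7 genes. CASP1, CASP4, IFI16 and CARD16 were lowest in shRNA-NC replicate 1 and in shRNA-UBC9 replicate 3, the libraries with most leukocyte markers at 0. NLRP1, NLRP3, PYCARD and GSDMD were not lowest in both libraries. Between these 2 libraries, shRNA-UBC9 replicate 3 was higher by ratios of 4.12 for CASP1, 3.61 for NLRP3, 2.65 for IFI16, 2.20 for CASP4 and 1.38 for NLRP1, and had ratios of 1.07 for GSDMD and 0.953 for PYCARD, with 1 sample on each side and so no test. In the other 4 samples the log2 fold changes were 1.85 for CASP1, 1.59 for NLRP3, 1.57 for IFI16 and 1.30 for CASP4, and the limma adjusted p was at most 0.0166. The epithelial markers summed to 941 to 1109 RPKM over 8 genes in shRNA-NC and 426 to 564 RPKM in shRNA-UBC9. KRT7, KRT8, KRT17, KRT18 and KRT19 were lower in every shRNA-UBC9 sample than in any control. EPCAM was not, at 0.412, 0.986 and 0.575 RPKM in shRNA-NC and 2.51, 1.27 and 0.732 RPKM in shRNA-UBC9. CDH1 and UPK1B were near 0. The part of these and of the leukocyte markers in the results was not tested. In bulk RNA, fewer cells expressing a gene and less RNA per cell cannot be told apart.

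The rest of the pathway was taken from 6 lists with 58 genes, of which 57 were in the files and 35 were tested. Of these, 12 were up-regulated, against the 5.2% of all tested genes given above, and 0 were down-regulated by limma, with 5 lower and 18 higher at an unadjusted p below 0.05, where 23.2% and 23.8% of all tested genes lay. Their median log2 fold change was 0.41. CARD16, GBP5 and IL33 were the 3 of the 12 that passed the filter only through the shRNA-UBC9 samples, so these 3 add no independent support to the count.

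**Figure D4:**
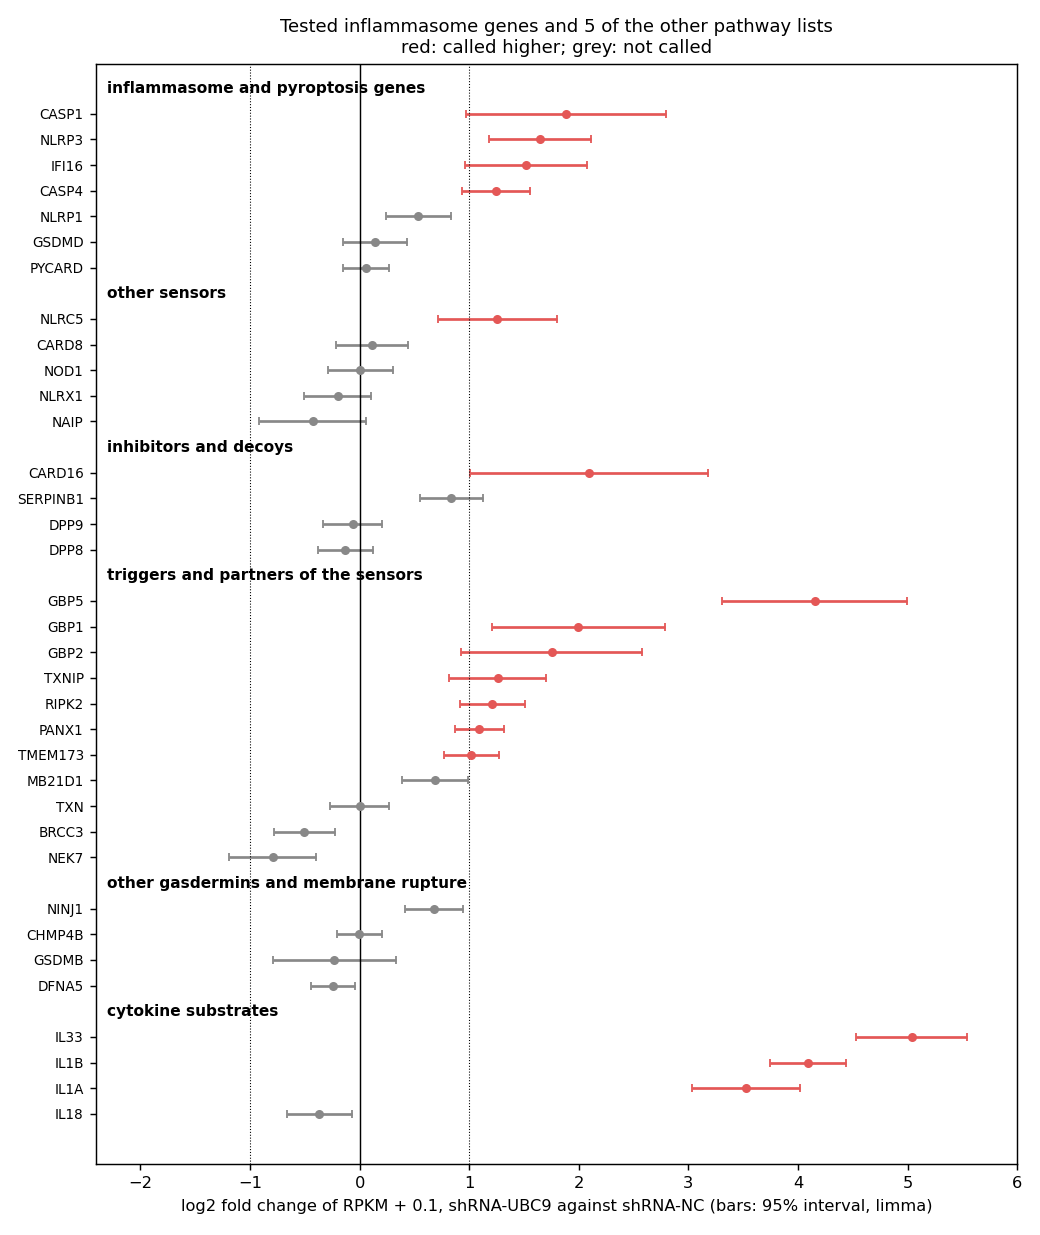
Log2 fold change of shRNA-UBC9 over shRNA-NC (x axis) with its 95% interval from limma for the 7 tested inflammasome and pyroptosis genes and the 28 tested genes of the other pathway lists without the caspases of other death pathways (rows, by list), in red for genes that passed both thresholds and grey for the others and dotted lines at -1 and 1. CASP1, NLRP3, IFI16 and CASP4 lie to the right of 1 in the first block, IL1A, IL1B, IL33 and GBP5 lie farthest to the right, and no gene passes the threshold on the left.

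Among 15 other sensors, 5 were tested and NLRC5, best known as the activator of class I histocompatibility genes, was up-regulated. It measured 1.64, 2.08 and 1.67 RPKM in shRNA-NC and 3.24 to 6.60 RPKM in shRNA-UBC9 (log2 fold change 1.26, SE 0.24, limma adjusted p = 0.00468). It fell under the fold threshold when shRNA-UBC9 replicate 2 was left out (0.97) and with a pseudocount of 1 (0.96). NOD1, the sister of NOD2, had 1.52 RPKM in both groups on average, and CARD8, which forms an inflammasome with caspase-1, had log2 fold change 0.12 (limma adjusted p = 0.552). MEFV, which encodes pyrin, was at 1, 1 and 0 steps in shRNA-NC and 16, 9 and 5 steps in shRNA-UBC9, too low to test. The median of the 5 tested sensors was 0.006 on the log2 scale.

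Of 13 triggers and partners of the sensors, 11 were tested. By limma 7 were up-regulated and 0 were down-regulated, against 5.2% and 2.7% of all tested genes. At an unadjusted p below 0.05, 2 were lower and 8 higher, where 23.2% and 23.8% of all tested genes lay. GBP5, among the up-regulated, passed the filter only through the shRNA-UBC9 samples. GBP5, GBP1 and GBP2, interferon-induced guanylate-binding proteins, had log2 fold changes of 4.15, 1.996 and 1.75. Of these, GBP1 and GBP2 coat bacteria and bring caspase-4 to lipopolysaccharide. GBP5 was near 0 in shRNA-NC, and its log2 fold change was 2.38 with a pseudocount of 0.5 and 1.68 with a pseudocount of 1. RIPK2, the kinase downstream of NOD2, had 9.08 ± 0.536 RPKM in shRNA-NC and 21.4 ± 3.91 RPKM in shRNA-UBC9 (SD, n = 3 each, log2 fold change 1.21, limma adjusted p = 0.000406). TXNIP, a partner of NLRP3, and PANX1, a membrane channel, had log2 fold changes of 1.26 and 1.09. TMEM173 (STING) lay just above the fold threshold at 1.02, while MB21D1 (cGAS), which acts before it, had 0.69. TMEM173 was below that threshold in 7 of 15 alternatives, some of them processing settings and others fits with 1 sample left out. ZBP1, a sensor of Z-form nucleic acids, was too low to test, at 0.00620, 0 and 0 RPKM in shRNA-NC and 0.246, 1.16 and 0.177 RPKM in shRNA-UBC9. NEK7, a kinase that NLRP3 needs for assembly, had 28.8, 27.1 and 30.7 RPKM in shRNA-NC and 12.3, 20.6 and 17.9 RPKM in shRNA-UBC9. Its difference of -0.79 on the log2 scale did not reach the fold threshold (limma adjusted p = 0.00896). BRCC3, which removes ubiquitin from NLRP3, had -0.50 (limma adjusted p = 0.0132). NLRP3 itself was thus higher while these 2 partners were lower without passing the fold threshold.

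Of 10 inhibitors and decoys, 9 were in the files and 4 were tested, with CARD16 the one up-regulated. SERPINB1, an inhibitor of inflammatory caspases, measured 7.09, 7.997 and 7.96 RPKM in shRNA-NC and 13.8, 16.1 and 11.8 RPKM in shRNA-UBC9. Its groups did not overlap, and its log2 fold change of 0.84 stayed under the fold threshold (limma adjusted p = 0.00161). DPP8 and DPP9, the proteases that hold NLRP1 and CARD8 in check, had log2 fold changes of -0.13 and -0.06.

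None of the 7 tested caspases of other death pathways passed both thresholds in limma, with 3 higher and 1 lower at an unadjusted p below 0.05, against 23.8% and 23.2% of all tested genes. CASP8, an initiator of apoptosis through death receptors, had a log2 fold change of 0.41 (limma adjusted p = 0.0263). CASP2 had -0.82 (limma adjusted p = 0.00354). The median of the 7 was 0.16, against 1.25 and 1.88 for CASP4 and CASP1.

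Of 7 other gasdermins and genes of membrane rupture, 4 were tested and none passed both thresholds in limma, with 1 higher and 1 lower at an unadjusted p below 0.05, beside the same shares of all tested genes. NINJ1, which ruptures the membrane after the pores have formed, measured 5.42, 5.16 and 4.71 RPKM in shRNA-NC and 8.06, 9.44 and 7.27 RPKM in shRNA-UBC9, giving a log2 fold change of 0.68 (limma adjusted p = 0.003). DFNA5 (gasdermin E), another pore former, had 5.61 ± 0.325 and 4.72 ± 0.101 RPKM (SD, n = 3 each, limma adjusted p = 0.0601). GSDMC, which was too low to test, had 0.0685, 0.0197 and 0.0302 RPKM in shRNA-NC and 0.255, 0.619 and 0.326 RPKM in shRNA-UBC9.

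The cytokines that the pathway cleaves or releases were at unequal levels. IL1B had 27.6 ± 5.11 RPKM in shRNA-NC and 469.7 ± 59.0 RPKM in shRNA-UBC9 (SD, n = 3 each), giving a log2 fold change of 4.09, and IL1A and IL33 had 3.52 and 5.04, each with a limma adjusted p of at most 2.8e-05. IL33 was near 0 in shRNA-NC, and with a pseudocount of 1 its log2 fold change was 2.86. IL18, the other substrate of caspase-1, had 16.9, 20.8 and 18.5 RPKM in shRNA-NC and 17.2, 13.8 and 12.8 RPKM in shRNA-UBC9, so the groups overlapped (log2 fold change -0.37, SE 0.13, limma adjusted p = 0.0564). Both substrates of caspase-1 were thus present as RNA in T24 cells, and the levels of the mature proteins were not measured here.

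**Figure D5:**
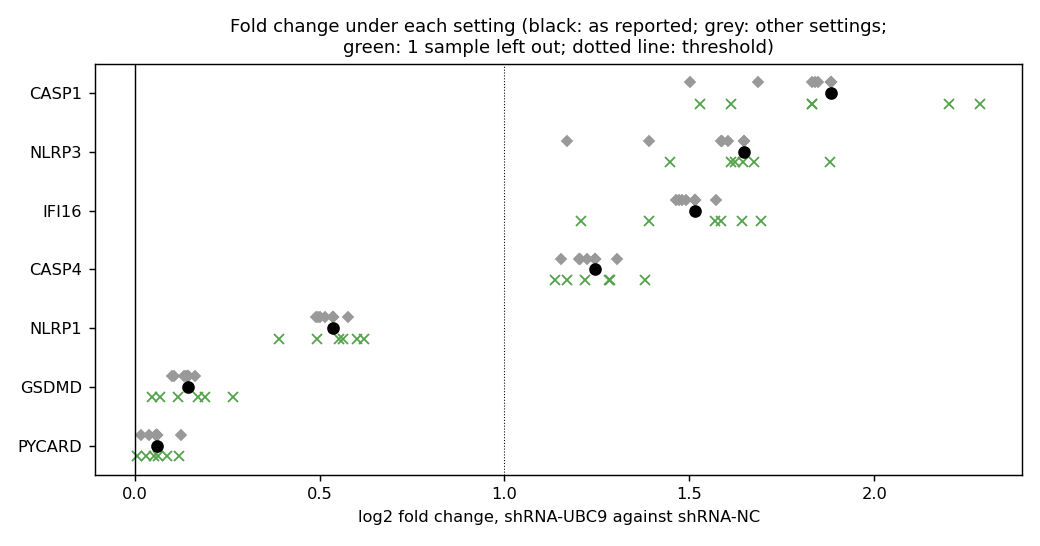
Log2 fold change (x axis) of the 7 tested inflammasome and pyroptosis genes as reported (black), with 1 sample left out (green crosses) and under the other processing alternatives (grey), with a dotted line at the threshold of 1. CASP1 ranges from 1.501 to 2.29, NLRP3 from 1.17 to 1.88, IFI16 from 1.21 to 1.69 and CASP4 from 1.14 to 1.38, all above 1, while PYCARD and GSDMD stay between 0.01 and 0.26.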

How the data were processed

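RNA-seq of polyA-selected RNA was measured in 3 shRNA-NC and 3 shRNA-UBC9 samples of T24 cells, grouped by their titles. Reads were mapped by the authors against GRCh38 in CLC Biomedical Genomics Workbench 4 (version and build from the submitters' processing notes) and RPKM values per gene were deposited. The annotation release, the use of strand and the treatment of reads that map to several places are not given in the sources used here, and RPKM is not corrected for RNA composition.

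No counts are in the files used here, so RPKM values were fitted as log2(RPKM + 0.1), which understates changes of low genes. Genes with RPKM of at least 0.5 in at least 3 samples (12428) were compared by limma 3.58.1 in R 4.3.3 (eBayes with a trend, Benjamini-Hochberg adjustment over all tested genes), with up- or down-regulation at an absolute log2 fold change above 1 and an adjusted p below 0.05. Single ratios were compared by exact permutation tests on the log2 scale in Python 3.11.15 with scipy 1.17.1. Relative depth was read from steps of low values, and steps are taken as reads without the counts to check them. Intervals on steps cover counting error only. Gene positions and shared 75-base stretches are from GENCODE release 44, promoter windows from RefSeq. Named by rule were the 10 genes, their neighbours and near copies, and every gene of the other lists past both thresholds. Other genes named from those lists were chosen after their values were seen. The level of the gene targeted by the hairpin and some other values are not reported here. The scripts were tested on simulated data.

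The genes, lists and tests were chosen with earlier results of these data known. Alternatives were other pseudocounts, filters, normalizations and thresholds, no trend, a replicate block and leaving out each sample, and the fit of 4 samples was chosen after seeing the data.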

Additional observations from a re-analysis of the deposited data

How the results depend on the processing

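CASP1, NLRP3, IFI16 and CASP4 kept their direction and both thresholds under every alternative that tested them. The number of the 10 genes up-regulated was 4, except for 5 without the expression filter, which added AIM2, 5 without the fold threshold, which added NLRP1, and 3 when RPKM had to be at least 1 in every sample, where NLRP3 was not tested. AIM2 entered the fit without the filter only through the shRNA-UBC9 samples, so its addition is no independent support. NLRP1 stayed between 0.39 and 0.62. TMEM173 fell under the fold threshold in 7 of 15 alternatives (0.92 to 1.08 over all), NLRC5 in 2, and CARD16 with a pseudocount of 1 (0.98).

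Counts over all tested genes moved more. A pseudocount of 1 gave 391 up-regulated and 161 down-regulated genes, and a pseudocount of 0.5 gave 222 down-regulated. Requiring an RPKM of at least 1 in every sample gave 342 and 210. Without the fold threshold 2339 genes were higher and 2237 lower, 3 of the other pathway genes among the lower. The causes were not tested beyond what these settings change by construction. Correlations of same-numbered deviations were -0.367, 0.0728 and -0.170, so they showed no pairing by replicate number, though they cannot settle how the samples were prepared. The highest correlation, 0.526, was between shRNA-NC replicate 1 and shRNA-UBC9 replicate 3, the libraries with most leukocyte markers at 0. What these libraries share was not tested. With a replicate block the 10 genes held 4 up-regulated, the other lists 12, and all genes 642 up-regulated and 332 down-regulated, and no call of a named gene changed.

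The values of NOD2 and MEFV rest on at most 23 steps in a sample, at an unknown absolute depth.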
